A study of Mus musculus with 24 samples.

Results

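The galectin genes Lgals1, Lgals3 and Lgals9, and Lgals3bp, which encodes a glycoprotein that galectin-3 binds, were followed through the cells of Panc02 tumors. These 4 genes were looked up by symbol among the 32285 genes of a UMI count matrix, and all 4 were found. The genes were chosen by measured values, namely the higher Lgals3 level with the PancVAX vaccine in CD8 and CD4 T cells, so the PancVAX values of the 4 genes in those cells are given as a description with no test. Panc02 is a mouse pancreatic adenocarcinoma line, implanted s.c. here in WT male C57BL/6 mice 6 to 7 weeks old. Tumors of each of 8 treatments were harvested on day 38, pooled, and sequenced as whole tumor and as a Percoll fraction, a density separation that enriches immune cells, which gave 16 RNA libraries of a 5′ kit. The 4 treatments without vaccine were Isotype Control, Anti-PD-1, Anti-CTLA-4, and Anti-PD-1 + Anti-CTLA-4. The 4 with vaccine were PancVAX, PancVAX + Anti-PD-1, PancVAX + Anti-CTLA-4, with all 3 agents (PancVAX + Anti-PD-1 + Anti-CTLA-4) as the last. PancVAX (days 12 and 19, at 50 µg, which the methods give per peptide and the labels for the peptides) is a neoantigen peptide vaccine given with AddaVax and the STING agonist ADU V16, so that peptides and adjuvants cannot be told apart. Anti-PD-1 (100 µg) was given repeatedly from day 12, and anti-CTLA-4 (100 µg) on days 15 and 22. No source used here says if the same animals went into both libraries of a treatment, so they were summed to 8 pools unless stated.

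Galectins are soluble lectins that bind β-galactosides on glycoproteins and glycolipids, inside and outside the cell, and leave the cell without a classical signal peptide. Galectin-1 (Lgals1) forms dimers and is known for dampening effector T cells. Galectin-3 (Lgals3) joins a sugar-binding domain to a long tail through which it forms lattices on cell surfaces, where it can bind LAG3 and hold T cell receptors apart from CD8. Galectin-9 (Lgals9) carries a pair of different sugar-binding domains and is a ligand of TIM-3 (Havcr2), while galectin-3 binding protein (Lgals3bp) is a secreted, heavily glycosylated member of the scavenger receptor cysteine-rich family.

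By RefSeq on GRCm38.p6, Lgals3 (ENSMUSG00000050335) lies on chromosome 14 at 47373860 to 47386167 and Lgals1 (ENSMUSG00000068220) on chromosome 15 at 78926725 to 78930465. Lgals9 (ENSMUSG00000001123) lies on chromosome 11 at 78962979 to 78984924 and Lgals3bp (ENSMUSG00000033880) on the same chromosome at 118392747 to 118401959. The upstream sequences below belong to the 3 genes whose pools with and without PancVAX did not overlap in CD8 T cells, and are shown so that they can be compared. These are the values by which the genes were chosen, and how many of all genes separate in this way was not counted. Each runs 5′ to 3′ on the strand of the gene and covers the 100 bases before its start, with a matched motif in capitals. The first is the GC box GGGCGG, here on the opposite strand of the Lgals3 promoter. The second is GAAA repeated after a spacer of 2 bases, the core of the interferon-stimulated response element, here on the opposite strand for Lgals9. The third is AANNGAAA, the core bound by interferon regulatory factors, on the strand of Lgals3bp.
Lgals3, chr14:47373760-47373859, plus strand: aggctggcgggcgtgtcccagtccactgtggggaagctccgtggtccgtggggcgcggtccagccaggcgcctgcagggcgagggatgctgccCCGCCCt
Lgals9, chr11:78984925-78985024, minus strand: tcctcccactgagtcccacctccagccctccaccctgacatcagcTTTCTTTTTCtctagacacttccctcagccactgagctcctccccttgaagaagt
Lgals3bp, chr11:118401960-118402059, minus strand: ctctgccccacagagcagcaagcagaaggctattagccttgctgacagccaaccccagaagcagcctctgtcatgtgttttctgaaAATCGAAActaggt
Windows from 250 bases before to 50 after the start were searched on both strands. In the Lgals9 window the spaced GAAA repeat matched at -55 and again at 16 from the start, the latter within these 30 bases.
Lgals9, chr11:78984890-78984919, minus strand: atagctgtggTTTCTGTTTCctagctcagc
Of 32851 promoters, 3.443% held the spaced GAAA repeat, 23.92% held AANNGAAA and 35.66% held GGGCGG. Each match of the repeat in Lgals9 overlaps a match of AANNGAAA, which Lgals9 also holds at -151 and Lgals3bp at -14, and GGGCGG matched in Lgals3 at -7 and at 5. A match describes the letters only.

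The matrix holds 144994 barcodes, of which 57357 (39.6%) passed the limits of the study on genes, UMIs, mitochondrial share and hemoglobin. Libraries held 77132398 to 176233225 UMIs and 1793 to 7413 passing cells. Among passing cells, 4171 (7.27%) carried a barcode sequence also seen in a cell of another library. Cell types were assigned by marker gates that drop cells with more than 1 marker of another class, except classes that share markers, and no doublet caller was run. The CD8 T gate held 8991 cells, CD4 T 961, macrophage 12869, stromal 210 and tumor 7755. Of the other gates described, neutrophil held 6041 cells, B 2183, NK 394, dendritic 333, monocyte 212, regulatory T 211 and endothelial 184. The tumor gate required Krt8 and Krt18, and other epithelial markers were mostly absent from it, with Epcam in 1.35%, Krt19 in 4.45%, Krt7 in 5.11% and Cldn7 in 14% of its cells. It left out cells with Col1a1 or Col1a2, but other stromal markers were seen in it, with Dcn in 35.6%, Pdgfra in 31.9%, Pdgfrb in 28.4%, Col3a1 in 20.9% and Lum in 10.1% of its cells. The upper limits on genes and UMIs removed 82.8% of tumor gate cells, 65.7% of stromal, 23.7% of macrophage and 9.93% of CD8 T. Over all passing cells, a UMI of Lgals1 was seen in 74.55%, of Lgals3 in 53.65%, of Lgals9 in 35.01% and of Lgals3bp in 27.05%. Counts were low in small gates. The stromal pool of Anti-PD-1 + Anti-CTLA-4, with 12 cells, held 7 UMIs of Lgals3, 7 of Lgals9 and 5 of Lgals3bp. In regulatory T cells the Anti-CTLA-4 pool, with 18 cells, held 2 UMIs of Lgals3 and 1 of Lgals3bp.

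Lgals3 was 4.24-fold higher in CD8 T cells and 3.605-fold higher in CD4 T cells of vaccinated mice, as ratios of mean CPM, the UMIs of a gene scaled to the UMI total of the gate. In CD8 T cells its level was 653 CPM with PancVAX, 871 with PancVAX + Anti-PD-1, 786 with PancVAX + Anti-CTLA-4 and 801 with all 3 agents. Without vaccine it was 219 CPM in Isotype Control, 156 with Anti-PD-1, 169 with Anti-CTLA-4 and 191 with both antibodies. Every pool with PancVAX lay above every pool without, at 778 ± 91.1 against 184 ± 27.5 CPM (mean ± SD, n = 4 and 4). The log2 fold change was 2.02 (SE 0.11), and it was 2.04 from whole-tumor libraries alone and 2.01 from Percoll libraries alone.

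In CD4 T cells with no Foxp3 UMI, which may include regulatory T cells whose Foxp3 was missed, Lgals3 stood at 303 CPM with PancVAX, 578 with PancVAX + Anti-PD-1, 510 with PancVAX + Anti-CTLA-4 and 522 with all 3 agents. The pools without vaccine were at 93.2 CPM in Isotype Control, 98.4 with Anti-PD-1, 145 with Anti-CTLA-4 and 194 with both antibodies. The groups did not overlap, at 478 ± 121 against 133 ± 47.1 CPM (n = 4 and 4). How many of all genes separate by pool in this gate was not counted. With PancVAX 708 of 5062 genes tested in it had an unadjusted edgeR p below 0.05. The log2 fold change was 1.87 (SE 0.19), with 2.51 in whole-tumor and 1.52 in Percoll libraries. The lowest whole-tumor library, of Isotype Control, rested on 3 Lgals3 UMIs in 33 cells. In regulatory T cells, gated by a Foxp3 UMI, the groups overlapped, with means of 68.1 CPM with and 51.0 without vaccine over 211 cells. NK cells averaged 130 and 155 CPM and B cells 39.2 and 45.0 CPM, with and without vaccine.

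**Figure D1:**
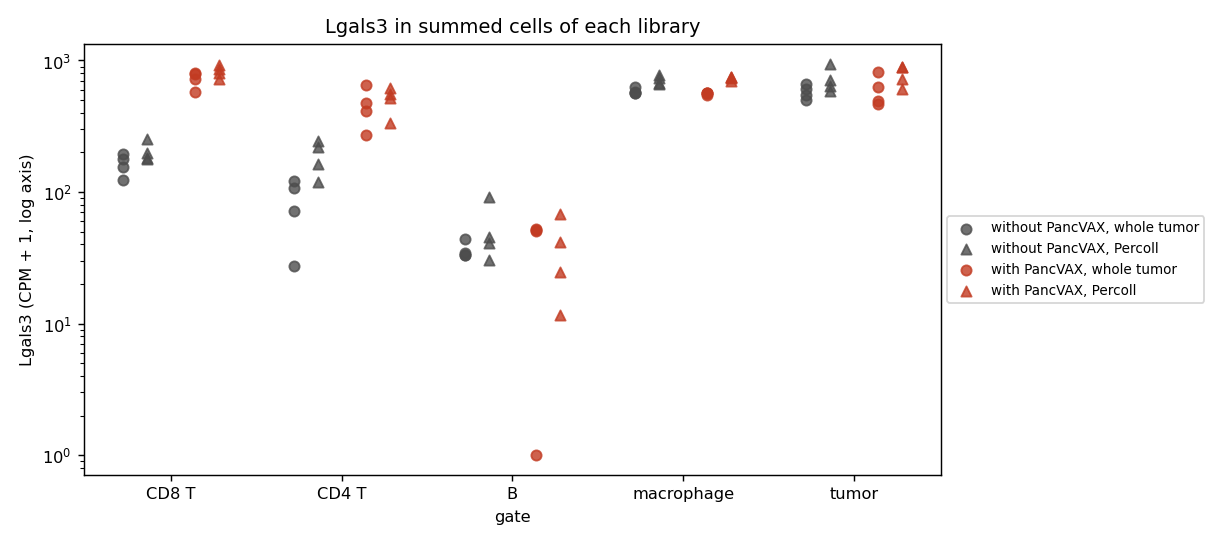
Lgals3 level (CPM + 1, log axis) in 5 gates, with 1 point per library of at least 10 gate cells, circles for whole tumor and triangles for Percoll, red with and grey without PancVAX. In the CD8 T gate red points start at 573 CPM and grey points end at 250 CPM, while in the macrophage gate the colors mix.

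The share of cells with an Lgals3 UMI differed in the same direction. At a common depth of 1000 UMIs a cell, 44.9% of CD8 T cells with PancVAX held an Lgals3 UMI (95% exact binomial interval 43.6 to 46.2) and 13.5% of those without (12.4 to 14.8). At full depth the shares were 67.5% and 34.7%, at median depths of 3466 and 4695 UMIs, so the vaccinated cells were the shallower ones. CD4 T cells gave 27.0% and 8.46% at the common depth, and 48.6% and 23.9% at full depth with medians of 3370 and 3215 UMIs. B cells, taken as a reference for free RNA, gave 3.75% and 3.26% at the common depth, and 8.02% and 6.17% at full depth with medians of 2128 and 1968 UMIs. All T cell shares lay above the B cell shares. Intervals cover counting error only and not the spread between mice.

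Transcripts of other cells were measured beside this difference. A list of 7 genes abundant in myeloid, stromal or all cells (Lyz2, Apoe, Spp1, Sparc, Mgp, Ctss and Ftl1) summed in CD8 T cells to 1056 to 1315 CPM with and 1043 to 1120 CPM without PancVAX, with 6 of 7 higher on average with vaccine. In CD4 T cells it summed to 1174 to 1341 CPM with and 1283 to 1853 CPM without, with 4 of 7 higher. Within the list, Lyz2 was at 55.9 CPM with and 27.8 without PancVAX in CD8 T cells and Mgp at 26.0 and 13.9, while Ftl1, which makes up most of the sum, was at 854 and 814. Spp1 went the other way, at 42.9 CPM with and 65.0 without PancVAX in CD8 T cells. In CD4 T cells Spp1 was at 38.8 CPM with and 219 without, where pools ran from 60.9 to 583. The macrophage markers C1qa, C1qb and C1qc were at 19.1, 23.9 and 18.4 CPM with and 19.3, 21.7 and 15.1 CPM without PancVAX in CD8 T cells. The tumor gate markers Krt18 and Krt8 were higher with vaccine there, Krt18 at 19.0 to 28.9 against 8.69 to 15.6 CPM, with no overlap, and Krt8 at a mean of 13.4 against 9.34 CPM. In CD4 T cells C1qa, C1qb and C1qc averaged 29.1, 21.7 and 20.1 CPM with and 31.75, 34.2 and 32.3 without PancVAX. Krt18 and Krt8 averaged 24.75 and 15.5 CPM with and 16.6 and 11.3 without in those cells. The mean Lgals3 level of vaccinated CD8 T cells, 778 CPM, was itself above the 634 ± 27.5 CPM of the macrophage gate (n = 8), and below the 2118 ± 456 CPM of the monocyte gate. The part of free RNA in the difference was not tested.

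The other 3 genes had smaller differences in these T cells. In CD8 T cells Lgals9 was at 115 to 135 CPM with and 84.8 to 92.9 CPM without PancVAX, a log2 fold change of 0.43 (SE 0.08). Lgals3bp was at 95.3 to 120 against 65.0 to 78.6 CPM, a log2 fold change of 0.50 (SE 0.09). For both, the 4 vaccinated pools lay above the other 4. How many of all genes separate by pool in this way was not counted. With PancVAX 3710 of 10622 genes tested in this gate had an unadjusted edgeR p below 0.05. The Lgals9 value was 0.30 with cells thinned to 1000 UMIs and 0.19 in cells with no Pdcd1 UMI. Lgals1 overlapped, at 1449 to 1575 against 1284 to 1618 CPM, with a log2 fold change of -0.02 (SE 0.06). In the CD8 T cells with no Pdcd1 UMI Lgals1 did not overlap, at 1348 to 1395 against 752 to 1113 CPM, a log2 fold change of 0.42. In CD4 T cells Lgals1 was at 1676 to 2022 against 1092 to 1969 CPM with a log2 fold change of 0.40 (SE 0.12), where the groups overlapped. Lgals9 and Lgals3bp overlapped in CD4 T cells too, with log2 fold changes of -0.10 (SE 0.19) and 0.00 (SE 0.22).

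Genes of T cell state are set beside Lgals3. Pdcd1, which encodes the inhibitory receptor PD-1, was at 329 ± 43.1 CPM with and 416 ± 44.0 without PancVAX in CD8 T cells, a log2 fold change of -0.41 (SE 0.08). Ccl5, a chemokine of memory and effector T cells, was at 14647 ± 1216 against 4244 ± 690 CPM (1.73, SE 0.08). Gzmb, which encodes the cytotoxic protease granzyme B, was at 1466 ± 276 against 720 ± 120 CPM (log2 fold change 0.97, SE 0.13). Ccl5 and Gzmb were thus past the fold set for a call, and Pdcd1 was not. In CD4 T cells Ccl5 gave -0.06 (SE 0.23) and Pdcd1 -0.20 (SE 0.17), while Gzmb gave 0.87 (SE 0.21).

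Lgals3 differed more among CD8 T cells in which no Pdcd1 UMI was seen than among those with 1 or more. Those cells held 703, 961, 816 and 902 CPM of Lgals3 with PancVAX alone, with anti-PD-1, with anti-CTLA-4 and with both. Without vaccine the same cells held 95.9 CPM in Isotype Control, 75.2 with Anti-PD-1, 122 with Anti-CTLA-4 and 113 with both antibodies. The ratio of means was 8.35 (845 ± 112 against 101 ± 20.4 CPM, 2991 and 1152 cells). Among cells with a Pdcd1 UMI it was 3.29 (719 ± 78.6 against 219 ± 35.1 CPM, 2655 and 2193 cells). At 1000 UMIs a cell the ratios were 8.16 and 3.603. Within a pool, cells with a Pdcd1 UMI were above those without in all 4 pools lacking vaccine, by a log2 of 1.11 ± 0.39, and below them in all 4 pools with vaccine, at -0.23 ± 0.09 (SD). With cells thinned to 1000 UMIs, an alternative chosen after seeing the data, the difference was 1.11 ± 0.51 without vaccine, above 0 in 4 of 4 pools, and -0.09 ± 0.12 with vaccine, below 0 in 3 of 4. The lower level in vaccinated pools was thus not seen in every pool at equal depth, and the difference between the groups of pools was not tested.

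Lgals1 was higher in the cells with a Pdcd1 UMI in 8 of 8 pools, by a log2 of 0.81 ± 0.27 without and 0.25 ± 0.14 with vaccine. Lgals9 was lower in them in 8 of 8 pools, at -0.47 ± 0.18 and -0.22 ± 0.07. Lgals3bp differed by -0.06 ± 0.18 and -0.12 ± 0.06, and at 1000 UMIs a cell by -0.09 ± 0.45 and -0.01 ± 0.12. Cells with a Pdcd1 UMI were deeper, with medians of 5120 against 4048 UMIs without vaccine and 3872 against 3147 with it, and at 1000 UMIs a cell Lgals1 was still higher in them in 4 of 4 pools of each group, while Lgals9 was lower in 4 of 4 without and 3 of 4 with vaccine. All genes were not compared between cells with and without a Pdcd1 UMI, so no background stands beside these counts of pools.

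**Figure D2:**
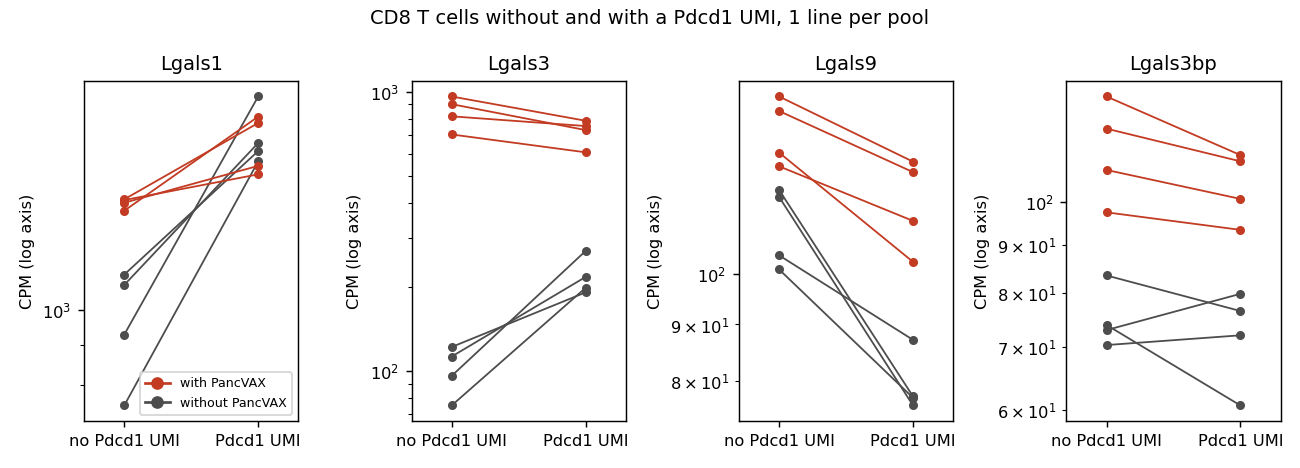
Level of each gene (CPM, log axis) in CD8 T cells without and with a Pdcd1 UMI, 1 line per pool, red with and grey without PancVAX. The grey Lgals3 lines climb from 75.2 to 122 CPM up to 191 to 269 CPM, and the red ones descend slightly.

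Clonal expansion was compared next in the 8 Percoll libraries that have T cell receptor contigs. A clone was a group of 2 or more cells of 1 library sharing TRB V gene and CDR3, and all other cells with a TRB chain were singletons. Lgals1 was higher in expanded clones in 8 of 8 libraries, by a mean log2 of 0.54 ± 0.43 (SD), and Lgals3 in 7 of 8, by 0.43 ± 0.47. Lgals9 was lower in clones in 8 of 8 libraries, at -0.54 ± 0.37. By an exact two-sided sign-flip permutation test over libraries, adjusted over the 4 genes, these gave p = 0.0156, 0.0312 and 0.0156, where the smallest unadjusted p possible is 0.00781. Other genes were not tested in this way, so no share of all genes stands beside these calls. Lgals3bp did not pass (-0.06 ± 0.32, lower in 6 of 8, adjusted exact p = 0.578). Lgals3 lost its call without upper limits on genes and UMIs (0.29), and Lgals9 lost its call with cells thinned to 1000 UMIs (-0.52).

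The difference between clones and singletons was read apart by vaccination, with no test. In the 4 libraries without PancVAX, Lgals3 was at 187 to 277 CPM in clones and 89.7 to 185 CPM in singletons, a mean log2 difference of 0.80. In the 4 with PancVAX it was at 742 to 901 CPM in clones and 672 to 864 CPM in singletons, a mean of 0.07. Lgals3 was high in vaccinated singletons as well, a level that belongs to the values used to choose the genes. Lgals1 differed by 0.87 without and 0.22 with PancVAX, and Lgals9 by -0.81 and -0.27. The libraries without vaccine held 1287 cells in clones and 454 singletons, and those with vaccine 1622 and 793.

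**Figure D3:**
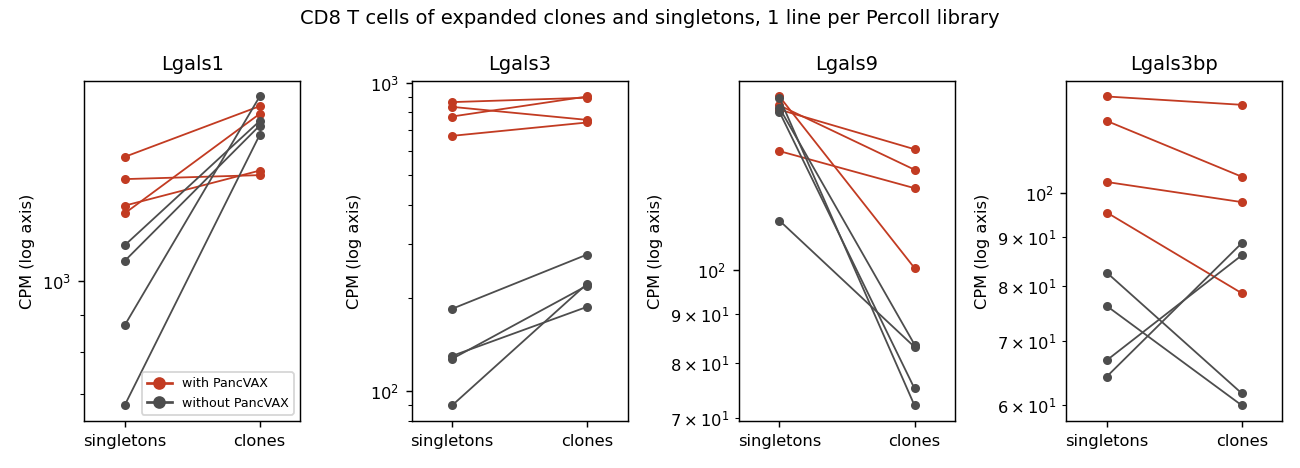
Level of each gene (CPM, log axis) in CD8 T cells of expanded clones and in singletons, 1 line per Percoll library, red with and grey without PancVAX. Lgals1 lines all lie higher in clones and Lgals9 lines all lie lower.

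Levels were then ordered over 12 gates within each gene, by the mean of log2 CPM over 8 pools. Of 44 neighbor pairs, 8 passed an exact two-sided sign-flip permutation test at an adjusted p of 0.043, each with the same direction in 8 of 8 pools. All 8 kept their direction with cells thinned to 1000 UMIs, but none passed (smallest adjusted p of the exact permutation test 0.0573). The smallest unadjusted p of this test over 8 pools is 0.00781, so with 44 pairs adjusted no pair can pass alone. Calls are therefore gained or lost together. With a stricter gate 4 of the 8 had a value, all 4 in the same direction and none past the threshold (exact permutation test, smallest adjusted p 0.125), while 7 of 8 passed without upper limits on genes and UMIs. Lgals1 was highest in the tumor gate (2881 ± 363 CPM), followed by stromal (2037 ± 306), regulatory T (1951 ± 421), CD4 T (1652 ± 376) and CD8 T (1491 ± 104), where no neighbor differed past the threshold. It stepped down from CD8 T to NK (1032 ± 162) and from NK to monocyte (689 ± 126). Dendritic (608 ± 173), macrophage (508 ± 73.3), endothelial (421 ± 107) and neutrophil (389 ± 139) gates followed without a step. B cells were lowest (246 ± 71.5), below neutrophils.

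Lgals3 was highest in monocytes (2118 ± 456 CPM), a step above the tumor gate (671 ± 133). The monocyte gate held only 17 to 34 cells a pool, and 21 cells in all with the stricter gate. The tumor gate and the next in order, macrophage (634 ± 27.5) and dendritic (652 ± 163), did not differ past the threshold. CD8 T (481 ± 324) and CD4 T (306 ± 203) came next, their SDs spanning the vaccinated and other pools. The place of CD8 T cells differed with vaccination, which follows from the values used to choose the genes. With PancVAX their mean of 778 CPM was above the dendritic (721), tumor (688) and macrophage (634) gates. Without it their mean of 184 CPM was below neutrophils (208.5). Neutrophil (203 ± 25.2), stromal (178 ± 64.3), NK (142 ± 64.8), regulatory T (59.6 ± 29.9), B (42.1 ± 11.3) and endothelial (57.4 ± 74.1) gates followed. No neighbor pair below monocytes passed for Lgals3.

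Lgals9 was highest in endothelial cells (430 ± 67.3 CPM), a step above monocytes (223 ± 79.1). The endothelial gate held only 19 to 38 cells a pool, and 36 cells in all with the stricter gate. Neutrophil (198 ± 31.1), NK (194 ± 57.1), macrophage (174 ± 14.1), CD4 T (125 ± 24.9), regulatory T (114 ± 31.3), stromal (115 ± 38.6), CD8 T (107 ± 20.5), tumor (103 ± 14.4) and B (86.6 ± 30.9) gates formed a graded series. Dendritic cells were a step below B cells (43.5 ± 24.9). Lgals3bp was highest in macrophages (212 ± 20.7 CPM), with stromal (158 ± 56.4) and NK (146 ± 24.8) next and a step down from NK to endothelial (101 ± 35.7). CD8 T (90.9 ± 20.7), monocyte (90.4 ± 24.6), CD4 T (79.9 ± 23.7), tumor (68.7 ± 9.78), regulatory T (64.5 ± 41.5) and dendritic (36.9 ± 12.9) gates followed, with a step down to neutrophils (10.6 ± 4.40) and B cells (10.1 ± 6.60). The lowest B cell pool, of 26 cells, held 0 Lgals3bp UMIs.

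**Figure D4:**
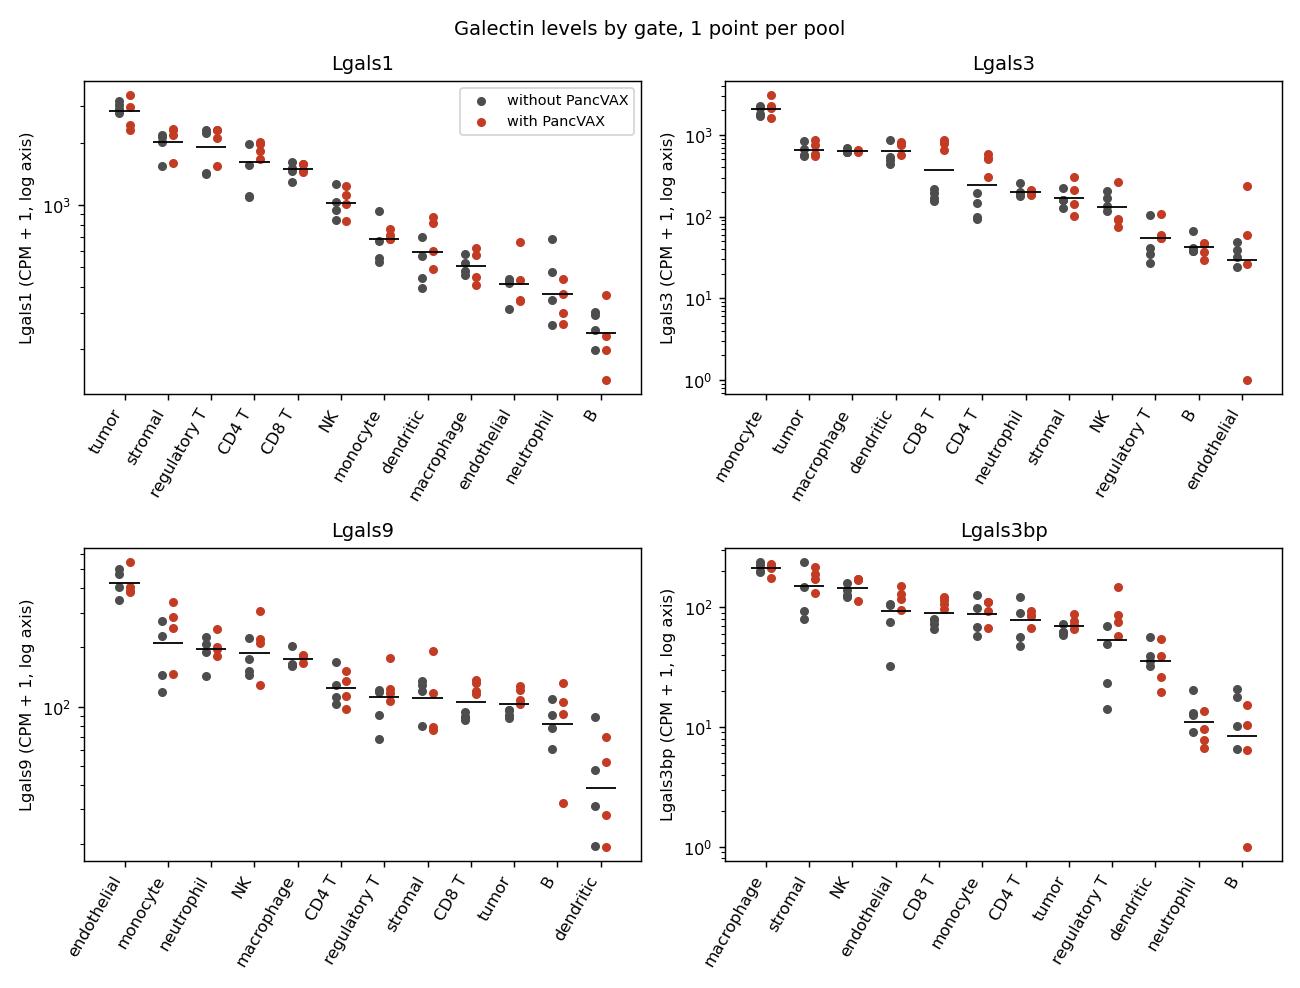
Level of each gene (CPM + 1, log axis) in 12 gates ordered by mean log2 level, 1 point per pool, with a line at the mean of the log2 values. The Lgals3 points of the CD8 T and CD4 T gates split by vaccination, and Lgals3bp drops in neutrophils and B cells.

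Genes with the most similar profile over the 12 gates were sought among 5834 genes of at least 20 CPM that mark no gate, by Pearson correlation of mean log2 CPM. These were Kmt5a (r = 0.915), Tkt (0.846) and Rnh1 (0.842) for Lgals3, and Memo1 (0.912), Tecr (0.897) and Mllt3 (0.872) for Lgals1. For Lgals9 they included Xaf1 (0.879) and Stim2 (0.842), and for Lgals3bp Tomm5 (0.885), Spcs3 (0.848) and Stard3nl (0.841). Among the 4 genes themselves r ran from -0.22 for Lgals3 and Lgals9 to 0.51 for Lgals1 and Lgals3bp. The gates come from the same libraries and differ in depth, so these values are descriptions over 12 points.

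Outside T cells no galectin gene passed the test with PancVAX. Of 12 pairs of gene and gate (macrophage, stromal, tumor), 0 were called by edgeR at adjusted p below 0.05 and an absolute log2 fold change above 0.5, 1 had an unadjusted p below 0.05, and DESeq2 called 0. Of all genes, 0.0888% were called in macrophages, 0.0342% in stromal cells and 0% in the tumor gate. An unadjusted edgeR p below 0.05 was found there for 1467 of 11263, 159 of 2926 and 1707 of 11335 genes. Lgals3 was at 612 to 662 CPM with and 611 to 689 CPM without vaccine in macrophages, a log2 fold change of -0.04 (95% interval -0.16 to 0.07). In the tumor gate it was at 547 to 877 against 554 to 834 CPM, a log2 fold change of 0.00 (-0.27 to 0.28). Lgals9 in the tumor gate was at 102 to 126 CPM with and 86.8 to 94.9 CPM without vaccine, groups that did not overlap, but the log2 fold change of 0.26 (SE 0.09) did not pass (edgeR adjusted p = 0.231).

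Across the 4 pools with and the 4 without anti-PD-1, 0 of 20 pairs of gene and gate were called by edgeR, 4 had an unadjusted p below 0.05, and DESeq2 called 0. Of all genes, 0% were called in CD8 T, macrophage and stromal gates, 0.0593% in CD4 T and 0.00882% in tumor. The values with an unadjusted p below 0.05 were Lgals1 in macrophages (-0.33, SE 0.07, edgeR adjusted p = 0.547), Lgals3 in the tumor gate (0.36, SE 0.13, adjusted p = 0.696), Lgals9 in stromal cells (-0.81, SE 0.33, adjusted p = 0.409) and Lgals3 in CD4 T cells (0.39, SE 0.18, adjusted p = 0.876). In CD8 T cells Lgals3 gave 0.05 (95% interval -0.18 to 0.28). Over all genes, unadjusted edgeR p was below 0.05 for 470 of 10622 in CD8 T and 286 of 5062 in CD4 T. The macrophage gate had 703 of 11263 such genes, stromal 289 of 2926 and tumor 793 of 11335. Without upper limits on genes and UMIs Lgals3 in stromal cells was called, at 0.90 (edgeR adjusted p = 0.0445). That setting raised the stromal gate from 210 to 613 cells, and its share of all genes called is not given here.

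Anti-CTLA-4 gave 0 calls of 20 by edgeR as well, with 4 unadjusted p below 0.05 and 0 calls by DESeq2. Of all genes, 0% were called in CD8 T, macrophage and stromal gates, 0.079% in CD4 T and 0.0265% in tumor. Lgals1 in CD4 T cells gave 0.38 (SE 0.12, edgeR adjusted p = 0.734), Lgals3 in CD4 T cells 0.43 (SE 0.18, adjusted p = 0.955), Lgals3bp in macrophages -0.20 (SE 0.07, adjusted p = 0.93) and Lgals1 in the tumor gate -0.26 (SE 0.10, adjusted p = 0.55). Lgals3 in CD8 T cells gave 0.02 (95% interval -0.21 to 0.25). Over all genes, unadjusted edgeR p was below 0.05 for 408 of 10622 in CD8 T and 243 of 5062 in CD4 T. The macrophage gate had 543 of 11263 such genes, stromal 211 of 2926 and tumor 912 of 11335.

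Both antibodies together were compared on libraries, PancVAX + Anti-PD-1 + Anti-CTLA-4 with PancVAX, and Anti-PD-1 + Anti-CTLA-4 with Isotype Control. Each treatment has a single library per preparation, and both may hold the same mice. The p-values of these comparisons thus measure spread between libraries and not between independent groups of mice. Added to PancVAX they gave 0 calls of 20 by edgeR, 5 unadjusted p below 0.05 and 0 calls by DESeq2, beside 0.704% of all genes called in CD8 T, 0% in CD4 T, 0.848% in macrophage, 0.0307% in stromal and 0.769% in tumor. Lgals3 in CD8 T cells went from 573 and 721 CPM to 789 and 808 CPM in whole tumor and Percoll, a log2 fold change of 0.30 (SE 0.09, edgeR adjusted p = 0.136). Lgals3 in the tumor gate went from 490 and 603 to 633 and 894 CPM (0.46, SE 0.13, edgeR adjusted p = 0.142). In macrophages Lgals1 gave -0.45 (SE 0.15, edgeR adjusted p = 0.243). In CD4 T cells Lgals3 gave 0.73 (SE 0.30) and Lgals9 -0.72 (SE 0.30). Over all genes, unadjusted edgeR p was below 0.05 for 881 of 9939 in CD8 T and 218 of 3611 in CD4 T. The macrophage gate had 1058 of 10617 such genes, stromal 91 of 3262 and tumor 1075 of 10531.

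Given alone, both antibodies went with higher Lgals1 in CD4 T cells. Its level was 1101.5 CPM in the Isotype Control library of whole tumor (33 cells), 1101.3 CPM in that of Percoll (16 cells), and 2107 and 1873 CPM with both antibodies, from 28 and 43 cells, a log2 fold change of 0.72 (SE 0.16, edgeR adjusted p = 0.0331). This was 1 call of 16 pairs, since stromal libraries could not be fitted, with 5 unadjusted p below 0.05 and 1 call by DESeq2, the same pair (0.75, DESeq2 adjusted p = 0.0033). Of all genes, 0.471% were called in CD4 T, 0.252% in CD8 T, 0.254% in macrophage and 0.522% in tumor. The call was lost without each of the 4 libraries in turn (edgeR adjusted p 0.0731 to 0.294, log2 fold change 0.66 to 0.83), and over 10 alternatives the adjusted p ran from 0.00298 to 0.772, with 2 of them called. The libraries of a treatment may hold the same mice, so they may not be independent replicates. Lgals3 in the tumor gate went from 544 and 581 CPM to 657 and 947 CPM (0.48, SE 0.13, edgeR adjusted p = 0.159). Over all genes, unadjusted edgeR p was below 0.05 for 691 of 9939 in CD8 T and 373 of 3611 in CD4 T. The macrophage gate had 779 of 10617 such genes and tumor 732 of 10531.

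Lgals3 in the tumor gate depended on which cells were kept. Without the upper limits on genes and UMIs it was called in both comparisons, at 0.72 (edgeR adjusted p = 1.18e-05) for the antibodies alone and 0.60 (7e-05) added to PancVAX. That setting raised the tumor gate from 7755 to 45133 cells, and its share of all genes called is not given here. These p-values, too, rest on libraries of a treatment that may share mice. The effect of both antibodies with PancVAX minus that without was tested for 16 pairs, and none passed. The share of all genes passing this test was not counted. Lgals3 in CD8 T cells gave the smallest edgeR adjusted p, 0.113, for a difference of 0.50 (SE 0.13), with 5 of 16 at an unadjusted p below 0.05.

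**Figure D5:**
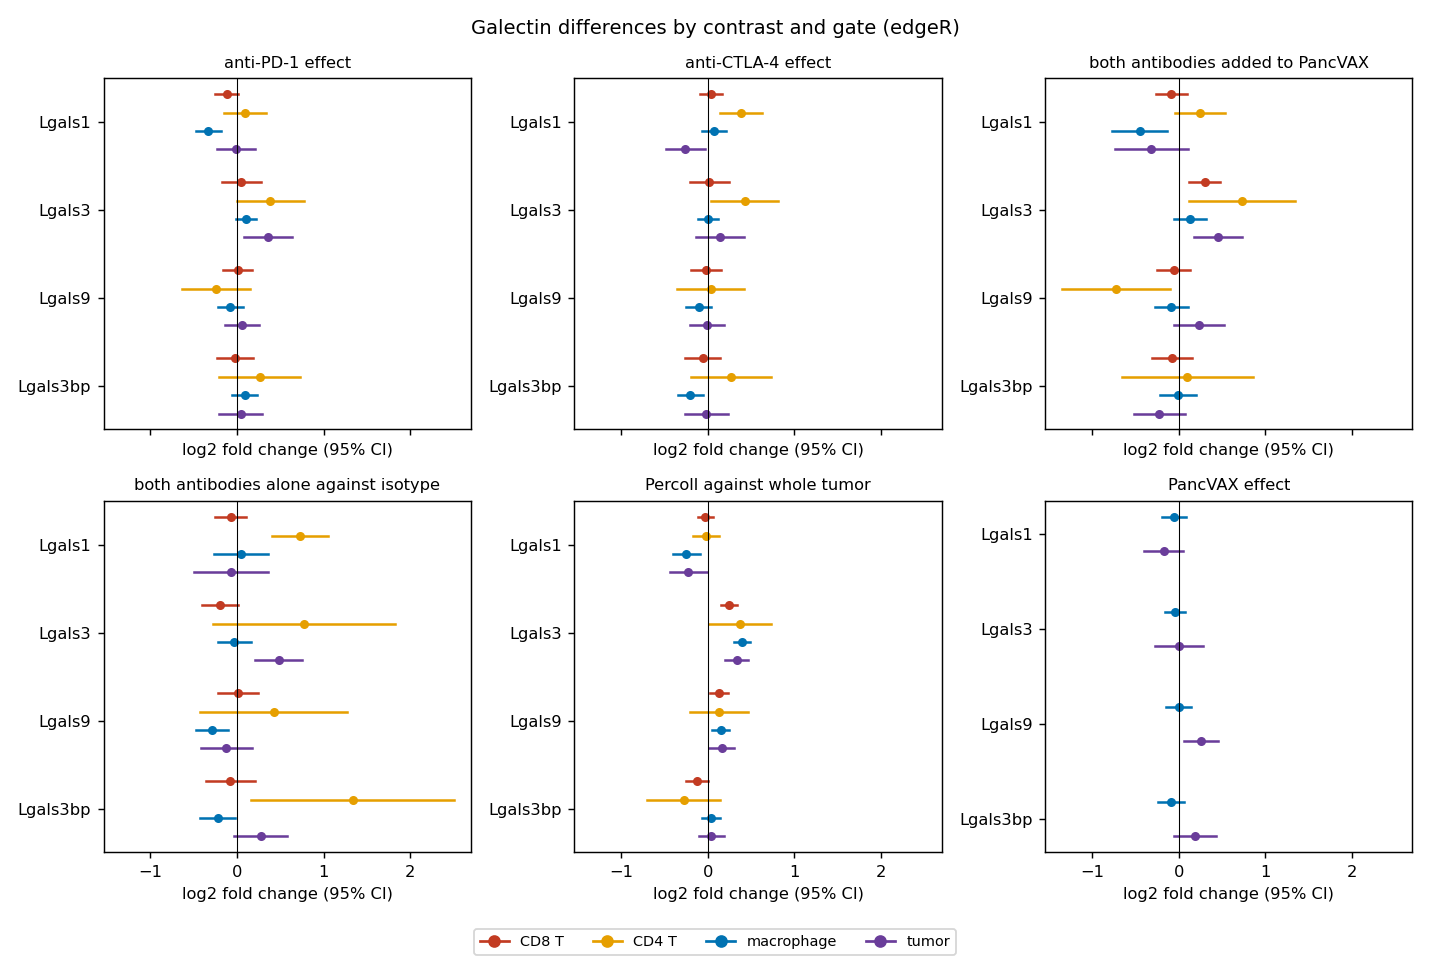
Log2 fold change with 95% confidence interval of each gene in the CD8 T, CD4 T, macrophage and tumor gates, 1 panel per comparison, with T cells left out of the PancVAX panel and the stromal gate not drawn. Most intervals cover 0, and Lgals3 lies above 0 in the 4 gates of the Percoll panel.

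Percoll libraries gave higher Lgals3 than whole-tumor libraries in macrophage, tumor and CD8 T gates. No pair of 20 was called by edgeR (0, with 10 unadjusted p below 0.05 and 0 calls by DESeq2), since no change past the adjusted p exceeded a log2 of 0.5, beside 6.21% of all genes called in CD8 T, 2.44% in CD4 T, 4.78% in macrophage, 0.399% in stromal and 2.66% in tumor. Adjusted p alone was below 0.05 for 5 pairs, and the share of all genes at that threshold was not counted. Small p-values were common here, with an unadjusted edgeR p below 0.05 for 3141 of 9939 genes in CD8 T. The macrophage gate had 3379 of 10617 such genes, tumor 2608 of 10531, CD4 T 574 of 3611 and stromal 290 of 3262. Lgals3 gave 0.40 in macrophages (SE 0.05, edgeR adjusted p = 1.66e-06), 0.33 in the tumor gate (SE 0.07, adjusted p = 0.00258) and 0.24 in CD8 T cells (SE 0.05, adjusted p = 0.00048). In stromal cells, on 9 libraries of which 2 were Percoll, Lgals3 gave -1.43 (SE 0.65, 95% interval -2.73 to -0.14, edgeR adjusted p = 0.485), and 0.07 without upper limits on genes and UMIs. In macrophages Lgals1 gave -0.25 (SE 0.08, edgeR adjusted p = 0.0229) and Lgals9 0.15 (SE 0.05, adjusted p = 0.0246). Macrophage Lgals3 was at 546 to 623 CPM in whole tumor and 665 to 772 CPM in Percoll, with no overlap. Preparation and sequencing batch cannot be told apart.

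A list of 37 genes, with 7 other galectins, 16 galectin binding partners and 14 enzymes that build or cap galectin-binding glycans, was read in the same comparisons. The list was chosen with earlier results of these data known, so its share of calls cannot be read as an excess over all genes. In CD8 T cells with PancVAX 30 were tested, 5 were higher and 5 lower by edgeR, beside 11.7% of all genes called (7.11% higher and 4.63% lower). Their median log2 fold change was 0.08, against 0.01 for all genes. Among binding partners Itgb1, the β1 integrin chain, rose by 1.42 (SE 0.07), while Lag3 fell by 0.99 (SE 0.12), Tnfrsf9 (4-1BB) by 0.89 (SE 0.10) and Havcr2 (TIM-3) by 0.72 (SE 0.11). Among enzymes the sialyltransferases St3gal1 and St3gal4 rose by 0.92 (SE 0.22) and 0.69 (SE 0.09), and B3gnt2, which extends poly-N-acetyllactosamine chains, by 0.59 (SE 0.08). Gcnt1, which makes the core 2 branch of O-glycans, fell by 0.98 (SE 0.14).

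In CD4 T cells with PancVAX 23 of the list were tested, 1 was higher and 2 were lower, beside 2.07% of all genes (1.32% higher and 0.751% lower). Itgb1 rose by 1.02 (SE 0.14), and Havcr2 and Lag3 fell by 1.62 (SE 0.29) and 1.03 (SE 0.19). With PancVAX 0 of 32 were called in macrophages, 0 of 13 in stromal cells and 0 of 30 in the tumor gate by edgeR. Of all genes, 0.0888%, 0.0342% and 0% were called there. No listed gene, of 13 to 32 tested a gate, was called with anti-PD-1, with anti-CTLA-4 or with both antibodies added to PancVAX. Few of all genes were called there either. By gate, these were 0% to 0.0593% with anti-PD-1, 0% to 0.079% with anti-CTLA-4 and 0% to 0.848% with both antibodies added. Lgals7, an epithelial galectin, was the single call among 27 tested in the tumor gate with both antibodies alone, beside 0.522% of all genes (0.96, SE 0.13, edgeR adjusted p = 0.000466). It was also the single call among 29 tested in CD8 T cells between preparations, beside 6.21% of all genes (lower in Percoll, log2 fold change -0.69, SE 0.15, edgeR adjusted p = 0.00126).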

How the data were processed

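Single-cell RNA-Seq libraries of pooled Panc02 tumors (8 treatments, 2 preparations) were read from the deposited matrix of raw UMI counts per gene and barcode, which the authors made with Cell Ranger 4.0.0 on mm10 (per the submitters' processing notes). The number ending each barcode gave its library. Productive T cell receptor contigs covered the 8 Percoll libraries. The limits of the study on cells were kept (no hemoglobin UMI, a mitochondrial share under 10%, 200 to 3000 genes and 1000 to 10000 UMIs). Gates required at least 3 UMI-positive markers of a class (2 for NK and tumor), and this scoring rule was set after marker counts were seen. The 4 genes and all gene lists were chosen with earlier results of these data known.

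The study tested cells as replicates, which was not done here. UMIs were summed by gate and library or pool (at least 10 cells) and tested with the edgeR 4.0.16 quasi-likelihood test (TMM, filterByExpr, limma 3.58.1, R 4.3.3), with Benjamini-Hochberg adjustment over all genes tested. The vaccine and each antibody were main effects over 8 pools. Pairs of treatments were compared over 16 libraries with preparation as covariate, and preparations with treatment as block. Stromal fits on libraries used 9. A gene was called at adjusted p below 0.05 with an absolute log2 fold change above 0.5. Each pool holds several mice, and p-values measure the spread between pools or libraries, which may be technical. Tests of order and clones used log2(CPM + 1) and exact sign flips (scipy 1.17.1). The scripts were tested on simulated data.

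Named genes were the 4 genes, listed genes called (at most 4 a direction), the 3 most similar genes of each (1 is not reported here), and Pdcd1, Ccl5 and Gzmb. Alternatives were DESeq2 1.42.0, no count filter, no upper limits, a stricter gate, cells thinned to 1000 UMIs, each preparation alone, other covariates, and leaving out each pool or library. The stricter gate allowed no UMI of another class's markers, except of classes that share markers, and ignored Ccr7 and Pecam1. In it NK cells could keep some T cell markers. Monocyte and NK markers did not count against T cells in either gate. Tumor growth, ELISpot and flow cytometry were not analysed here.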

Additional observations from a re-analysis of the deposited data

Results flagged for a closer look

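Over 5 gates, 40 groups of 4 pools were tested for a pool far from the other 3 (by Dixon's test of the gap over the range), which chance finds in about 1 in 20 groups. It found 2, both among the 8 groups of the macrophage gate. Lgals3 was at 688.7 CPM in the Anti-PD-1 pool, against 610.6 to 622.9 CPM in the other pools without PancVAX (gap over range 0.843). Lgals9 was at 201.5 CPM in the Isotype Control pool, against 159.8 to 163.6 CPM in the others (0.909).

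Lgals3 in CD8 T cells with a Pdcd1 UMI, relative to those without, had opposite signs in the groups of pools, at a mean log2 of -0.231 in the 4 pools with PancVAX and 1.113 in the 4 without. Every pool of a group had the sign of its group. With cells thinned to 1000 UMIs the means were -0.09 and 1.107, and 3 of 4 pools with PancVAX and 4 of 4 without had the sign of their group. The difference between groups was not tested.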

How the results depend on the processing

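Over the 6 tested comparisons 1344 alternative values were computed. Of these 140 changed sign, none of them called, 3 became called, and 8 lost a call, all Lgals1 in CD4 T cells with both antibodies alone. Without upper limits on genes and UMIs, calls went from 0 to 1 for anti-PD-1 (Lgals3 in stromal cells, 0.90, edgeR adjusted p = 0.0445) and from 0 to 1 for both antibodies added to PancVAX (Lgals3 in the tumor gate). For both antibodies alone the single call became 0 with a stricter gate (log2 0.41), with no preparation covariate (0.73), with only the 4 libraries compared (0.74) and without each library (0 to 0). Without upper limits Lgals1 lost its call too (0.54), while Lgals3 in the tumor gate gained one (0.72). The shares of all genes called without upper limits are not given here. Leaving out a pool or library left 0 calls in the other comparisons, and Lgals3 with PancVAX ran from 1.92 to 2.15 in CD8 T and 1.63 to 2.04 in CD4 T cells. It was 1.65 in CD8 T cells with and 2.97 in those without a Pdcd1 UMI, and 2.51 in CD4 T cells of whole tumor only. Neighbor gates that differed numbered 8, 17 without upper limits, 0 of 32 with a stricter gate (smallest adjusted p 0.125, 19 pairs in under 8 pools) and 0 with thinned cells (smallest adjusted p 0.0573). The fit of preparations with no replicate block gave 0 calls, as did the blocked fit. Over 13 alternatives each, Lgals3 ran from 0.18 to 0.28 in CD8 T, 0.37 to 0.42 in macrophage and 0.28 to 0.37 in tumor gates. These lie below the fold set for a call, so the count of calls cannot show if pairing by treatment mattered. Its edgeR or DESeq2 adjusted p was below 0.05 in 12, 13 and 12 of the 13. Genes called by edgeR and DESeq2 differed by over 1.5 times in several gates. For PancVAX these were CD4 T (105 and 62), macrophage (10 and 29) and tumor (0 and 5). For preparation they were CD8 T (617 and 358), macrophage (507 and 263), stromal (13 and 0) and tumor (280 and 153). For both antibodies added to PancVAX they were CD8 T (70 and 24), macrophage (90 and 37), stromal (1 and 0) and tumor (81 and 49), and alone CD4 T (17 and 29), CD8 T (25 and 14), macrophage (27 and 8) and tumor (55 and 36). For anti-PD-1 they were CD8 T (0 and 3), macrophage (0 and 1), stromal (0 and 11) and tumor (1 and 4), and for anti-CTLA-4 CD4 T (4 and 1), CD8 T (0 and 1), macrophage (0 and 3), stromal (0 and 3) and tumor (3 and 1). The cause of these changes was not tested. Stromal libraries could not be fitted for both antibodies alone, and CD4 T libraries of 16 to 117 cells limit the precision there.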
